A study of Homo sapiens with 5 samples.

Results

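The histone deacetylase (HDAC) genes of classes I, II and IV were examined in parental and EZH2 inhibitor-resistant (EIR) TOV21G cells. The members were the 10 rows of the count table whose Ensembl identifiers map to HDAC1, HDAC2, HDAC3, HDAC4, HDAC5, HDAC6, HDAC7, HDAC8, HDAC9 and HDAC11, out of 30476 genes. TOV21G is a cell line of ovarian clear cell carcinoma in which ARID1A, a subunit of the SWI/SNF chromatin remodeler, is mutated, and all libraries share this background. GSK126 inhibits EZH2, which methylates histone H3 as part of the PRC2 complex. EIR cells are clones picked after GSK126 had been raised from 5 to 10, 15 and 20 uM. RNA-seq was available for parental cells (untreated, 1 library) and for EIR clones 3 and 4, each untreated and GSK126-treated (4 libraries). How much GSK126 the treated cultures received, and for how long, is not stated in the labels.

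HDACs remove acetyl groups from lysines of histones and other proteins, and histone deacetylation is generally linked to lower transcription. Of the class I enzymes, HDAC1, HDAC2 and HDAC3 act in the nucleus within the NuRD, SIN3, CoREST and NCoR/SMRT corepressor complexes. Class IIa enzymes shuttle between nucleus and cytoplasm and bind the MEF2 transcription factors. HDAC6, of class IIb, is mainly cytoplasmic and deacetylates tubulin, cortactin and the chaperone HSP90, and it is known as a gene that ARID1A represses in ovarian clear cell cancer.

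Start-site windows of the members are shown for the class I pair HDAC1 and HDAC2, which differed in direction, and for HDAC6 and HDAC9. Each window runs from 250 bases before to 50 bases after an annotated start and was taken from RefSeq (GRCh38.p14), which matched 9 of the 10 members with 19 windows. HDAC5 had no entry. Capitals mark the GC box (GGGCGG) and the CCAAT box, the cyclic AMP response motif TGACGT, and TATTTTTA, the core of the motif bound by MEF2 factors. All were searched on both strands. HDAC1 is at chr1:32291833-32292132 (plus strand), HDAC2 at chr6:113971099-113971398 (minus strand), the most upstream HDAC6 window at chrX:48801148-48801447 (plus strand), the most upstream HDAC9 window at chr7:18086575-18086874 (plus strand) and an HDAC9 window further inside the gene at chr7:18495460-18495759 (plus strand).
HDAC1: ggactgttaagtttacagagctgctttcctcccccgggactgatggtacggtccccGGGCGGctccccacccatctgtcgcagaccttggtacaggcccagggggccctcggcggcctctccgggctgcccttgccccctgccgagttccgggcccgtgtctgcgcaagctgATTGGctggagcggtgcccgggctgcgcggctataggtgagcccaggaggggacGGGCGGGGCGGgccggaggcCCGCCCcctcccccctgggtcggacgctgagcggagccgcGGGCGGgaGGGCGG
HDAC2: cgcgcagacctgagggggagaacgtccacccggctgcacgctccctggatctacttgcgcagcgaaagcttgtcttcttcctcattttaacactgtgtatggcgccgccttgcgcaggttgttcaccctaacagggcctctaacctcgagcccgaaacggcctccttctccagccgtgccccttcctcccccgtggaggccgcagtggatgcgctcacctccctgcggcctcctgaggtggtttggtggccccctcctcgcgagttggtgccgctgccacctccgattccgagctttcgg
HDAC6: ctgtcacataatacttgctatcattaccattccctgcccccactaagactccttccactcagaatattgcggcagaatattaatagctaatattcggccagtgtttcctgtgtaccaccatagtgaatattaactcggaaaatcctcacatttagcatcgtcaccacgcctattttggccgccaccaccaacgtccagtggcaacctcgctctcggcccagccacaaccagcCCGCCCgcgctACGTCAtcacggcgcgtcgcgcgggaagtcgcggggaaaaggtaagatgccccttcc
HDAC9 upstream: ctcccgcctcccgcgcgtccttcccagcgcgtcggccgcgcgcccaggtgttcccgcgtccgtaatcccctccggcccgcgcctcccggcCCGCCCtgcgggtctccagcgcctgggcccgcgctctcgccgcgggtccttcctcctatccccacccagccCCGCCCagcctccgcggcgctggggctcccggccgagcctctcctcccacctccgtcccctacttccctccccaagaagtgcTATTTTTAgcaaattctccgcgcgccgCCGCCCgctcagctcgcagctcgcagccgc
HDAC9 internal: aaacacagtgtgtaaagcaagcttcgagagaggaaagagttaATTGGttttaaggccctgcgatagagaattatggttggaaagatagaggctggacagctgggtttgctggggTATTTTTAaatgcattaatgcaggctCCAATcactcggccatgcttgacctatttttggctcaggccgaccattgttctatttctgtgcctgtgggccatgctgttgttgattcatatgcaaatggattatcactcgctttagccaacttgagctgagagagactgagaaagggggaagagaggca

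The windows differed in composition. The HDAC1 window had a GC content of 73.7%, 28 CpG dinucleotides and 6 GC boxes, whereas the HDAC2 window had 64% and 24 CpG and held none of the motifs. The upstream HDAC6 window had 53% GC, 21 CpG, 1 GC box and the only TGACGT among the members' windows, and its neighbour window, which starts at 48801699, had 68.7% GC, 4 GC boxes and 2 CCAAT boxes. The upstream HDAC9 window had 75% GC, 41 CpG and 3 GC boxes. It also held TATTTTTA, which began at position -7 from the start. The internal HDAC9 window had 45.3% GC, 5 CpG and no GC box, but 2 CCAAT boxes and 1 TATTTTTA at position -136. Among all 35116 windows of this length, 45% held a GC box, 34.6% a CCAAT box, 7.98% TGACGT and 2.28% TATTTTTA. Of the members' 19 windows, 8 held a GC box, 6 a CCAAT box, 1 TGACGT and 3 TATTTTTA, all of the latter in HDAC9. HDAC4 and HDAC9 gave 5 windows each. In HDAC9 2 of the windows overlap, and in HDAC6 2 of 3 do, so some matches are counted in more than 1 window. None of the 19 held a TATAAA box, which 11.5% of all windows hold. These matches are descriptions of letters, not of factor binding.

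Total counts ranged from 25479238 to 30764963 per library. The epithelial markers PAX8, KRT8 and KRT18 were at 100 counts or more in every library, and 3 markers of leukocytes, endothelium and monocytes summed to 8 to 36 counts. Of the 6 line and epithelial markers in the table, NAPSA was low (2 to 53 counts), and EPCAM was at 0 and 1 counts in the clone 4 libraries against 398 to 498 in the other 3, so that the clones differ in an epithelial marker. Whether that difference bears on any HDAC gene was not tested.

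The first comparison asked which HDAC genes differed between EIR and parental cells. By DESeq2, 5 of the 10 were lower in EIR cells and 0 were higher (adjusted p under 0.05 over all genes), namely HDAC1, HDAC5, HDAC6, HDAC9 and HDAC11. Over all genes tested, 13.2% were lower and 12.4% higher. HDAC5 and HDAC9, both of class IIa, had the largest changes, with log2 fold changes of -3.30 and -2.66. The median log2 fold change of the 10 members was -0.68, against 0.003 for all 16288 genes tested. All 4 EIR libraries lay below the parental library for 9 members and above it for 1, HDAC2. With other scalings some of these ranges overlapped, HDAC8 under total count scaling (838 in parental cells, 699.7 to 844 in EIR cells) and HDAC2, HDAC4 and HDAC7 after a correction for GC content. Among the 11564 genes that averaged 100 normalized counts or more, 40.6% had all EIR libraries below and 31.9% had all above, so an absence of overlap with a single parental library is common. Only 1 parental library exists and each clone gave 2 libraries. The p-values therefore rest on the spread between the 4 EIR libraries, which come from 2 clones, and hold no measure of spread between parental cultures. An exact permutation of 1 library against 4 could not go below p = 0.2. In bulk RNA, fewer cells expressing a gene and less RNA per cell cannot be told apart.

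**Figure D1:**
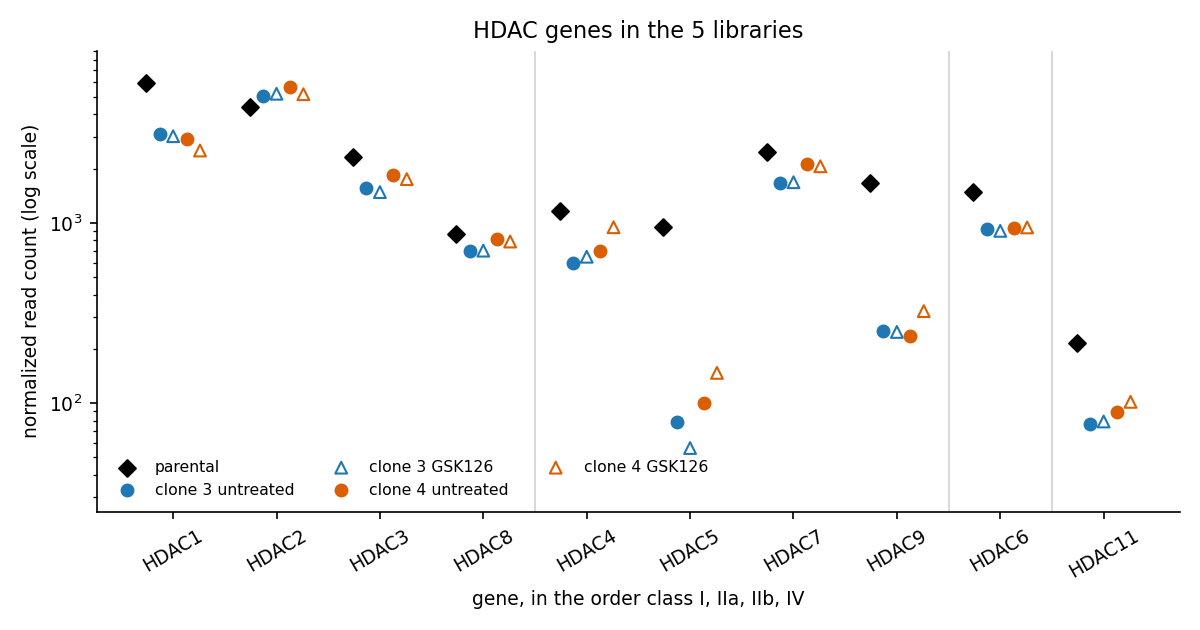
Normalized read counts (log scale) of the 10 HDAC genes, 1 point per library: black diamonds, parental; blue, clone 3; orange, clone 4; filled circles, untreated EIR; open triangles, GSK126-treated EIR. HDAC2 is the one gene whose parental point is the lowest, and HDAC5 and HDAC9 show the widest gaps, with EIR libraries at 56.3 to 147 and 237 to 324 against 942 and 1671 in parental cells.

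The class I genes were HDAC1, HDAC2, HDAC3 and HDAC8. HDAC1 (ENSG00000116478, chromosome 1, 32757684 to 32799236, plus strand, GRCh37), a catalytic subunit of NuRD, SIN3 and CoREST, had 5956.5 normalized counts in parental cells, 3107 in untreated clone 3, 3022 in GSK126-treated clone 3, 2910.4 in untreated clone 4 and 2517 in GSK126-treated clone 4. All EIR libraries were thus about the same distance below the parental one. The mean in EIR cells was 2889 ± 261 (SD, n = 4), and HDAC1 fell by 1.04 on the log2 scale (SE 0.19, DESeq2 adjusted p = 2.129e-06). It passed in all 14 alternative analyses, with log2 fold changes of -1.13 to -0.86.

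HDAC2 (ENSG00000196591, chromosome 6, 114254192 to 114332472, minus strand), the close paralog of HDAC1 in the same complexes, was at 4387 in parental cells (normalized counts) and at 5072, 5197, 5657 and 5166 in untreated clone 3, treated clone 3, untreated clone 4 and treated clone 4. Its log2 fold change was 0.27 (95% interval -0.03 to 0.56) and did not pass (DESeq2 adjusted p = 0.1981). After GC correction the parental value of 5037 lay inside the EIR range of 4918 to 5240.0 and the log2 fold change was 0.02. HDAC3 (chromosome 5, 141000443 to 141016416), the enzyme of the NCoR/SMRT complex, had a normalized count of 2319.5 in the parental library and of 1480.4 to 1840.2 in the EIR libraries, a log2 fold change of -0.49 (95% interval -0.89 to -0.08, DESeq2 adjusted p = 0.0685). HDAC8 (chromosome X, 71549366 to 71792951), which deacetylates cohesin, had 871 in parental cells and 699.9 to 812 in EIR cells, a log2 fold change of -0.22 (95% interval -0.62 to 0.18, DESeq2 adjusted p = 0.4747). Neither of these genes passed the threshold, although for each the parental library was the highest.

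Because HDAC1 and HDAC2 share complexes, their ratio was taken within each library, where library size cancels. The ratio of HDAC1 to HDAC2 counts was 1.36 in parental cells, 0.613 in untreated clone 3, 0.582 in treated clone 3, 0.515 in untreated clone 4 and 0.487 in treated clone 4. HDAC1 thus gave more reads than HDAC2 in parental cells and fewer in every EIR library. The ratio was 1.07 in parental cells and 0.4999 to 0.630 in EIR cells after GC correction. These are ratios of counts, which are not divided by transcript length, and the parental value has no replicate.

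**Figure D2:**
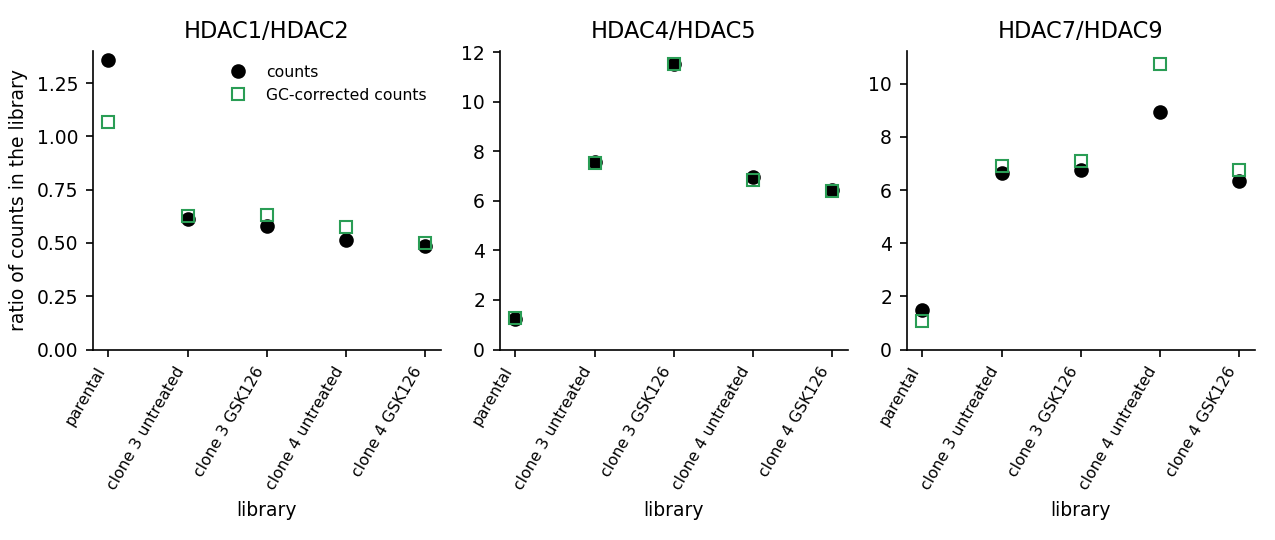
Ratio of counts of HDAC1 to HDAC2, HDAC4 to HDAC5 and HDAC7 to HDAC9 in each of the 5 libraries (linear axes from 0), from counts (black) and GC-corrected counts (green). Parental cells lie above all EIR libraries in the first ratio and below them in the others, by both measures.

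The class IIa genes encode signal-dependent corepressors with little catalytic activity of their own. HDAC9 (ENSG00000048052, chromosome 7, 18126572 to 19042039, plus strand, GRCh37) had 1671 normalized counts in parental cells, 250 in untreated clone 3, 248 in treated clone 3, 237 in untreated clone 4 and 324 in treated clone 4. The treated clone 4 library was the highest of the EIR libraries, and all were far below parental cells. HDAC9 fell by 2.66 on the log2 scale (SE 0.27, DESeq2 adjusted p = 1.537e-20), a 6.32-fold lower level, and passed in all 14 alternatives (log2 fold change -2.78 to -2.55).

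HDAC5 (ENSG00000108840, chromosome 17, 42154114 to 42201070, minus strand) was at 942 in parental cells (normalized counts), 78.7 in untreated clone 3, 56.3 in treated clone 3, 101 in untreated clone 4 and 147 in treated clone 4. Clone 3 lay below clone 4 under both treatments, and the 4 EIR libraries spread over a wider relative range than for any other member. HDAC5 fell by 3.30 on the log2 scale (SE 0.53, DESeq2 adjusted p = 1.926e-08), a 9.85-fold lower level, and passed in all 14 alternatives (log2 fold change -3.80 to -2.86). It overlaps G6PC3 on the opposite strand, which had 493 to 728 counts, and since use of strand in counting is not stated, reads of the overlap could be assigned to either gene.

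HDAC4 (chromosome 2, 239969864 to 240323348) and HDAC7 (chromosome 12, 48176505 to 48226915), the other class IIa members, had smaller differences. HDAC4 had 1168 normalized counts in parental cells, 596 and 648 in clone 3 (untreated, treated), and 699.9 and 945 in clone 4. Its log2 fold change was -0.69 (95% interval -1.32 to -0.07, DESeq2 adjusted p = 0.0967), but without the treated clone 4 library it was -0.84 and passed (adjusted p = 0.0016). HDAC7 had 2473 in parental cells, 1659 and 1679 in clone 3, and 2118 and 2058 in clone 4, and did not pass (log2 fold change -0.40, 95% interval -0.86 to 0.07, DESeq2 adjusted p = 0.2207). After GC correction the HDAC4 log2 fold change was -0.30 (DESeq2 adjusted p = 0.5906) and that of HDAC7 turned to 0.11. HDAC4 passed in 2 of 14 alternatives and HDAC7 in 1. HDAC7 overlaps SLC48A1 on the opposite strand (1976 to 3811 counts), so its counts carry the same uncertainty as those of HDAC5. Within libraries, the ratio of HDAC4 to HDAC5 counts was 1.24 in parental cells and 6.42 to 11.5 in EIR cells, and that of HDAC7 to HDAC9 counts was 1.48 against 6.36 to 8.94.

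HDAC6 (ENSG00000094631, chromosome X, 48659784 to 48683392, plus strand, GRCh37), the cytoplasmic tubulin deacetylase, had 1478.5 normalized counts in parental cells, 925 in untreated clone 3, 902 in treated clone 3, 939.9 in untreated clone 4 and 943 in treated clone 4. The EIR libraries were nearly level with each other in both clones and under both treatments. Their mean was 927 ± 18.5 (SD, n = 4), and the log2 ratio of each EIR library to the parental one lay between -0.71 and -0.65. HDAC6 fell by 0.67 on the log2 scale (SE 0.16, DESeq2 adjusted p = 2.227e-04), a 1.59-fold lower level. The size of this difference depended on whether GC content was corrected for. After GC correction it was -0.35 and did not pass (DESeq2 adjusted p = 0.1220), with 1236 in parental cells and 932 to 1013 in EIR cells. The call was also lost, at nearly the same fold, with each clone's libraries summed into 1 (log2 fold change -0.67, adjusted p = 0.1459) and with the untreated (adjusted p = 0.0712) or the treated (adjusted p = 0.0665) EIR libraries as the group compared. HDAC6 passed in the other 10 of 14 alternatives and was below 0 in all of them. HDAC10, the other class IIb gene, had 28 to 54 counts per library and was not among the 10 members.

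The genes whose profile over the 5 libraries came closest to that of HDAC6, by root mean square distance of centred log2 normalized counts among 11376 genes, were ARSD (distance 0.019), PIGT (0.019) and COL4A5 (0.021). ARSD, a sulfatase family gene, had 2240.0 normalized counts in the parental library and 1330.2 to 1419 in EIR libraries. PIGT, a subunit of the transamidase that attaches GPI anchors, had 2004 and 1199.8 to 1244, and COL4A5, a basement membrane collagen chain, had 3167 and 2010.1 to 2072. ARSD and COL4A5 are on chromosome X, as HDAC6 is, and PIGT is on chromosome 20. The profile is mainly a step between 1 parental library and 4 EIR libraries, so likeness over these libraries is a description only.

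HDAC11 (ENSG00000163517, chromosome 3, 13521224 to 13547924, plus strand), the only class IV enzyme, which removes long-chain fatty acyl groups, had the lowest mean count of the members over the libraries. It had 215.5 normalized counts in parental cells, 76.8 in untreated clone 3, 79.1 in treated clone 3, 89.5 in untreated clone 4 and 102 in treated clone 4. All EIR libraries were below the parental one, and clone 4 was above clone 3. HDAC11 fell by 1.31 on the log2 scale (SE 0.36, DESeq2 adjusted p = 0.0021), a 2.49-fold lower level. The difference was -0.91 after GC correction (adjusted p = 0.0700) and it also missed the threshold in edgeR (adjusted p = 0.0676), with summed clones (0.1338) and with untreated (0.0871) or treated (0.1323) EIR libraries, passing in 9 of 14 alternatives.

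**Figure D3:**
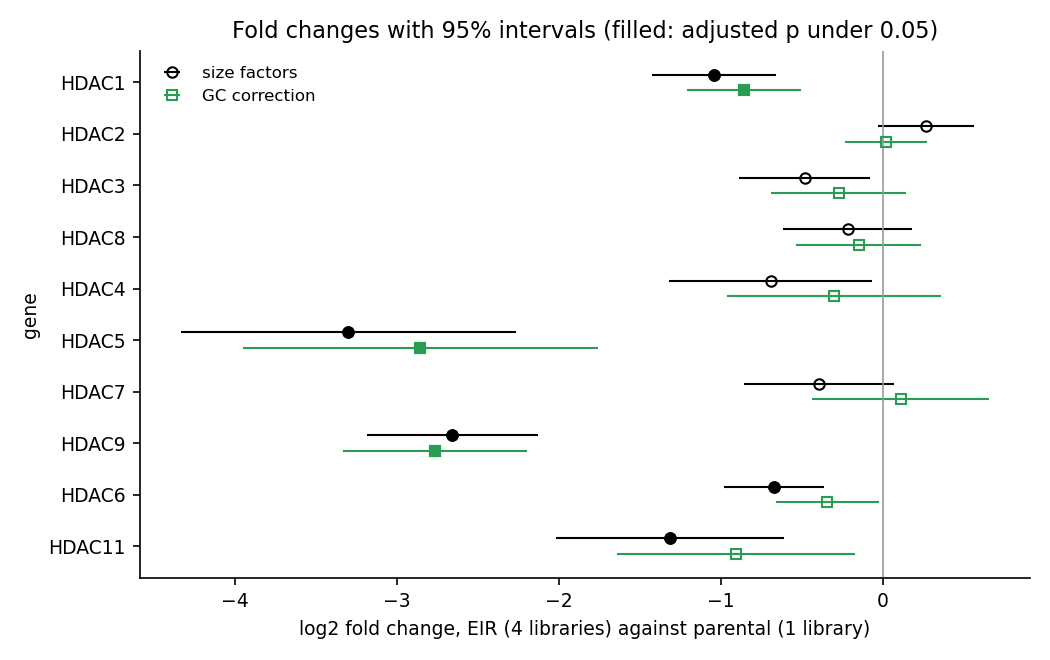
Log2 fold change of EIR (4 libraries) against parental (1 library) with 95% intervals for each HDAC gene, with size factors alone (black circles) and after GC correction (green squares); filled symbols have an adjusted p under 0.05. HDAC1, HDAC5 and HDAC9 are filled in both, HDAC6 and HDAC11 only in black, and HDAC7 changes sign.

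GC content of the members' transcripts ranged from 41.4% (HDAC2) to 64.1% (HDAC7). With the correction 3 of the 10 passed, HDAC1, HDAC5 and HDAC9, all lower, beside 9.34% of all genes tested that were lower, and the members' median log2 fold change was -0.33. With edgeR 4 passed, HDAC1, HDAC5, HDAC6 and HDAC9, beside 3.6% of all 30476 genes that were lower. The DESeq2 shares leave out genes without an adjusted p (16879 remained with GC correction), so the shares of the tools have different bases. HDAC1, HDAC5 and HDAC9 also passed when only the untreated EIR libraries (6.83% of all genes lower) or only the GSK126-treated ones (6.13%) were set against parental cells, and with both libraries of a clone added together (5.97%). The 2 clones gave different counts of calls against the same parental library, 8 of 10 lower in clone 3 (14.5% of all genes lower) and 5 of 10 in clone 4 (18.3%). HDAC3, HDAC4 and HDAC7 made up the difference. In these fits the treated and untreated libraries of a clone served as its replicates. The p-values therefore rest on spread within clones, not on spread between clones or between parental cultures. Whether the clones differed was tested directly, as described further on.

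Neighbouring genes were used to see whether a whole region had moved with a member. Among the 79 expressed genes within 5 Mb of HDAC1, the median log2 fold change was -0.29, and 11 were lower than HDAC1. Around HDAC5 the median was -0.27 over 130 genes, of which 3 were lower than HDAC5. None of the 28 genes around HDAC9 was lower than HDAC9 (median 0.03), and 1 of 60 around HDAC11 was lower than HDAC11 (median -0.02). Around HDAC6 the median over 55 genes was -0.21, and 10 were lower than HDAC6. Few or none of the neighbours were lower than HDAC5, HDAC9 and HDAC11, while the medians around HDAC1, HDAC5 and HDAC6 were similar to each other and below 0. Over all expressed genes of their chromosomes the medians were -0.08 (chromosome 1), -0.20 (chromosome 17) and -0.04 (chromosome X). Whether a region had shifted was not tested.

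Levels between members were compared per kilobase of transcript, in normalized counts. With the Ensembl canonical transcript as length, the order in parental cells was HDAC1 (2812), HDAC3 (1200.0), HDAC7 (587), HDAC8 (497), HDAC2 (451), HDAC6 (359), HDAC5 (177), HDAC9 (169), HDAC4 (138) and HDAC11 (76.5). In all 4 EIR libraries HDAC1 (1188 to 1467), HDAC3 (766 to 952) and HDAC2 led, HDAC7 and HDAC8 followed in either order, and then came HDAC6 (219 to 229), HDAC4 (70.5 to 112), HDAC11, HDAC9 and HDAC5. With this length HDAC5 went from above HDAC9, HDAC4 and HDAC11 in parental cells to the lowest of the members in EIR cells. HDAC6 ranked 6 of 10 in every library by the same length. HDAC2 at 521 to 581 and HDAC7 at 394 to 503 did not overlap in EIR cells, whereas HDAC7 and HDAC8 (399 to 463) did. HDAC9 (24.0 to 32.8) overlapped with both HDAC5 (10.6 to 27.6) and HDAC11 (27.3 to 36.0). The order depended on the length used. By the median over transcripts HDAC5 was below HDAC4 in parental cells (1027 and 1401). By that length it was not the lowest in treated clone 4, at 160 against 135.5 for HDAC9 and 127 for HDAC11. By the mean over the 5 libraries, HDAC6 ranked 6 of 10 by canonical transcript, 5 by longest transcript and 8 by the median over transcripts, by which HDAC2 led.

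The second comparison asked whether GSK126 changed HDAC expression in cells already resistant to it. None of the members passed with DESeq2 (0 of 10, adjusted p = 0.9999 for each, 0 with an unadjusted p under 0.05), and 0 of 10 passed in edgeR. Of all genes tested, 0.00335% passed in DESeq2 and 0% in edgeR, so the comparison called almost nothing in any gene. With the clone number as replicate block 0 of 10 members passed, beside 0.0134% of all genes. The within-clone log2 ratios of treated to untreated libraries had a median absolute value of 0.059, and 1 of 20 reached 0.5. HDAC6 was at -0.04 in clone 3 and 0.00 in clone 4, and the 95% interval of its log2 fold change ran from -0.45 to 0.39. HDAC1 was at -0.04 and -0.21 with an interval of -0.56 to 0.29. HDAC5 moved in opposite directions, -0.48 in clone 3 and 0.54 in clone 4, and HDAC4 (0.12 and 0.43) and HDAC9 (-0.01 and 0.45) were higher on treatment mainly in clone 4. Treated was above untreated in both clones for 2 members, HDAC4 and HDAC11, and below for 2, HDAC1 and HDAC3, while 25.8% and 22.4% of expressed genes did so. The intervals leave room for changes of either sign, and the absence of a call does not show that GSK126 left these genes unchanged.

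**Figure D4:**
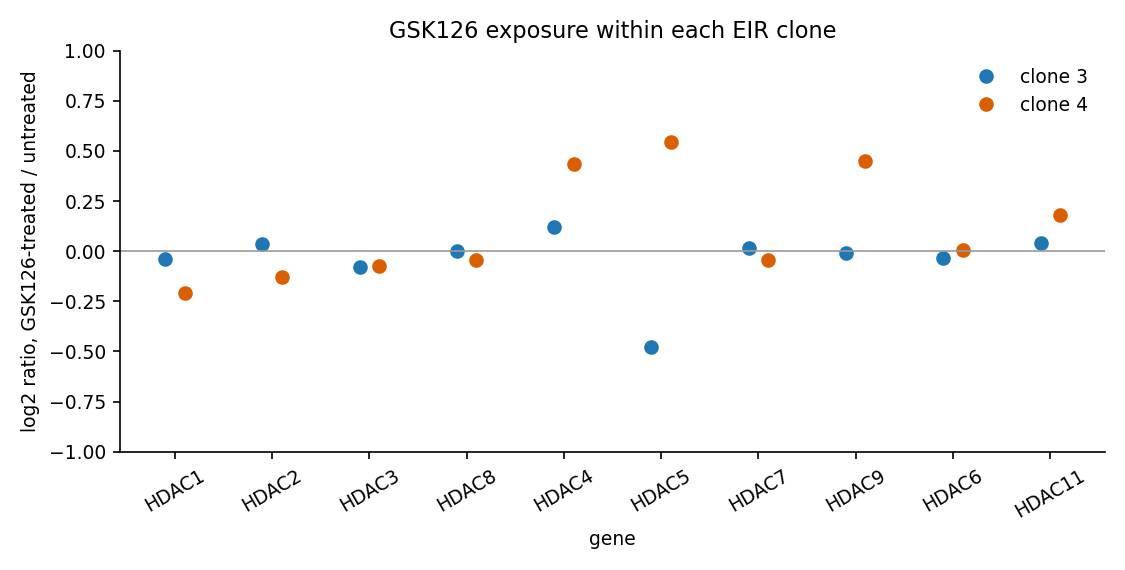
Log2 ratio of GSK126-treated to untreated normalized counts for each HDAC gene in clone 3 (blue) and clone 4 (orange), 1 pair of libraries per point. Most points lie near 0, and HDAC5 is at -0.48 in clone 3 and 0.54 in clone 4.

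The third comparison set clone 4 against clone 3, with treatment as covariate, as a measure of how far these resistant clones differ. Each clone is represented by its untreated and treated libraries. The p-values and intervals therefore rest on spread between libraries, not between independent clones. None of the members passed (0 of 10), beside 9.81% of the 17708 genes tested, and 0 of 10 in edgeR, beside 6.26% of all 30476 genes. With an unadjusted p under 0.05 the counts were 0 in DESeq2 and 3 in edgeR. HDAC5 had the largest log2 fold change, 0.86 (95% interval -0.14 to 1.86, DESeq2 adjusted p = 0.3997), with log2 ratios of 0.35 between untreated and 1.38 between treated libraries. HDAC6 differed least, with 0.04 (95% interval -0.38 to 0.45). HDAC4 was at 0.38 (adjusted p = 0.4205), and at 0.59 (adjusted p = 0.0418) in a fit without the untreated clone 4 library and without the treatment covariate. In that fit clone 4 is 1 treated library, the spread comes from clone 3 alone, and clone and treatment cannot be told apart. Both clone 4 libraries were above both clone 3 libraries for 7 members, HDAC3, HDAC4, HDAC5, HDAC6, HDAC7, HDAC8 and HDAC11, and below for 1, HDAC1. Of expressed genes, 27.8% lay above in this way and 35.3% below. The median absolute log2 ratio between clones was 0.233, compared with 0.695 between EIR and parental libraries.

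The partners and counterparts of the HDACs were then described in 10 lists of 73 genes in all. In EIR against parental cells 9 were higher and 7 lower, with a median log2 fold change of -0.16 against 0.003 for all genes. These are 12.3% and 9.59% of the 73, beside 12.4% and 13.2% of all genes tested, so the lists together held no larger share of calls than all genes. After GC correction 8 were higher and 3 lower, 11% and 4.11% of the 73. Among the 16879 genes tested with the correction, 1727 were higher and 1577 (9.34%) lower. Of the 16 genes called without the correction, 7 also passed after GC correction, 6 in edgeR and 4 in both, which were HMG20B, MEF2C, HSP90AA1 and SQSTM1.

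In CoREST 3 of 9 were lower and 1 higher, and only 1, lower, after GC correction. The counts for this and each following list are small and are read beside 13.2% lower and 12.4% higher among all genes. HMG20B, a DNA-binding subunit, was at 6976 in the parental library and at 2281 to 2489.5 in EIR libraries (DESeq2 log2 fold change -1.53, adjusted p = 1.598e-23). RCOR2, a scaffold subunit, had 2072 against 356 to 868 (-1.83, adjusted p = 0.0056), and RCOR3, its paralog, had 480.4 against 669 to 907 (0.67, adjusted p = 0.0469). KDM1A, the lysine demethylase of the complex, was lower as well (-0.62, adjusted p = 0.0087). Of these CoREST genes, HMG20B alone passed in edgeR and after GC correction. In NuRD 2 of 11 were lower, the remodeling ATPase CHD3 (log2 fold change -1.15) and MTA1 (-0.87), and neither passed after GC correction (adjusted p = 0.1224 and 0.1950), where MTA3, another MTA subunit, did (-0.64, adjusted p = 0.0445). In SIN3 1 of 13 was higher, BRMS1L (0.93), with an adjusted p of 0.0862 after GC correction and 0.0562 in edgeR, and its paralog BRMS1 passed after GC correction instead (0.58, adjusted p = 0.0149). In NCoR/SMRT, the complex of HDAC3, 2 of 5 were higher, GPS2 (0.69) and TBL1XR1 (0.58), which also passed after GC correction but not in edgeR. In MiDAC, an HDAC1 and HDAC2 complex of dividing cells, 0 of 2 passed.

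HDAC6 partners and substrates had 3 of 9 higher and 0 lower, and 2 of 9 higher after GC correction, beside 12.4% higher among all genes without it. HSP90AA1, the inducible HSP90 chaperone, was at 23350.5 in the parental library and at 54052 to 69073 in EIR libraries (DESeq2 log2 fold change 1.37, adjusted p = 3.413e-10). SQSTM1, an autophagy receptor that binds ubiquitin, had 4783 against 8599 to 9572 (0.90, adjusted p = 1.235e-07), and PLAA, a ubiquitin-binding partner of VCP, had 1801 against 2378 to 2675.5 (0.51, adjusted p = 0.0100), without passing after GC correction (adjusted p = 0.2044). The other 6 did not pass. Among them was HSP90AB1, the other HSP90 gene of the list, with 49911 against 57584 to 65968 (DESeq2 log2 fold change 0.31, adjusted p = 0.1437). The tubulin acetyltransferase ATAT1 (-0.89, adjusted p = 0.4020) did not pass either. Nor did the HDAC6 substrate CTTN, which encodes cortactin (-0.06, adjusted p = 0.8820).

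Of the class IIa partners, 1 of 4 was higher, MEF2C, which is named after its values were seen because its mean was under 100. It had 2 counts in parental cells and 56, 68, 46 and 54 in untreated clone 3, treated clone 3, untreated clone 4 and treated clone 4. The normalized ratio of EIR to parental counts was 27.7, with an exact 95% interval of 7.57 to 230 that covers counting error only (DESeq2 adjusted p = 2.571e-04). MEF2A, with 1078 normalized counts in the parental library and 933 to 1465 in EIR libraries, and MEF2D, with 401 and 278 to 444, overlapped between groups. MEF2B had 49 counts in parental cells and 23, 6, 6 and 0 in untreated clone 3, treated clone 3, untreated clone 4 and treated clone 4. MEF2B was thus lower in all EIR libraries, opposite to MEF2C, at low counts, and did not pass (DESeq2 log2 fold change -2.56, adjusted p = 0.2846).

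The sirtuins, the NAD-dependent deacetylases of class III, were all 7 below 0 (log2 fold change -1.34 to -0.36), beside a median of 0.003 for all genes tested. SIRT4 alone set the lower end, at low abundance, with 22 reads in the parental library against 6 to 13 per EIR library. It did not pass (DESeq2 adjusted p = 0.3426), and the other sirtuins ran from -0.61 to -0.36. Of the 7, 1 passed, SIRT2 (-0.55, adjusted p = 0.0140), which like HDAC6 deacetylates tubulin. After GC correction SIRT2 was at -0.18 (adjusted p = 0.5356), SIRT6 (0.03) and SIRT7 (0.08) were above 0, and SIRT1, which deacetylates histones and transcription factors in the nucleus, passed instead, moving from -0.47 (adjusted p = 0.0764) to -0.87 (adjusted p = 9.140e-05). Of the 10 histone acetyltransferases, which oppose the HDACs, 1 was higher, HAT1, which acetylates newly made histone H4 (log2 fold change 0.88, adjusted p = 0.0017 and 0.0253 after GC correction). KAT5, the acetyltransferase of the TIP60 complex, passed only after GC correction (0.29 without it and 0.64 with it, adjusted p = 0.3420 and 0.0058). Of the 3 acetyl-lysine readers of the BET family, 1 was lower, BRD3 (-1.11, adjusted p = 0.0029), which did not pass after GC correction (adjusted p = 0.1332). In GSK126-treated against untreated libraries 0 of the 73 passed. Between the clones 6 were higher in clone 4 and 0 lower, 2 of them acetyltransferases and 1 each in NuRD, SIN3, CoREST and NCoR/SMRT, beside 3.3% higher and 6.52% lower among all genes.

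**Figure D5:**
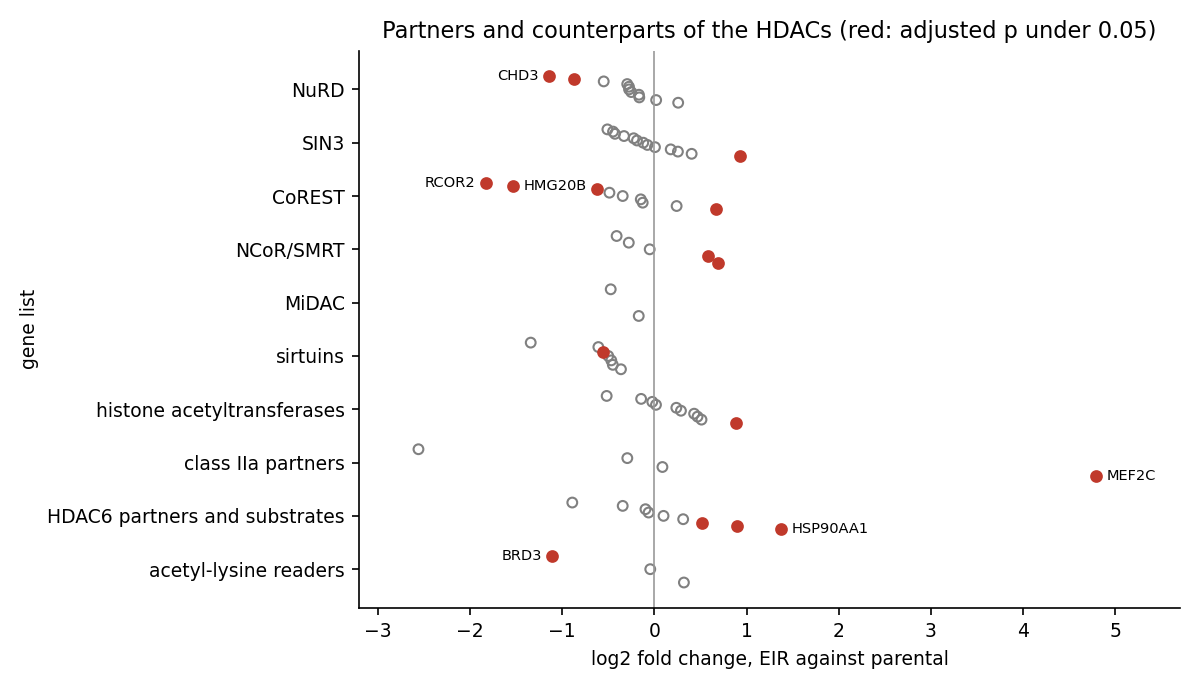
Log2 fold change of EIR against parental cells for the 73 genes of 10 lists, 1 point per gene, with genes of adjusted p under 0.05 in red and those beyond 1 in size named. MEF2C lies at 4.79, and HSP90AA1 is the highest gene of the HDAC6 list.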

How the data were processed

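RNA-seq libraries were prepared with a stranded total RNA kit from TOV21G cells, 1 parental and 4 EIR. The authors aligned reads to hg19 with bowtie2 and estimated reads per gene with RSEM. Its use of strand and its annotation release are not given in the sources used here. The values the authors deposited are estimated counts (expected counts), not normalized and whole numbers throughout (0 values not whole), and no column was left unused (0). Total counts ranged from 25479238 to 30764963. RSEM shares ambiguous reads between overlapping genes and paralogs.

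Differential expression was computed with DESeq2 1.42.0 in R 4.3.3 (median-of-ratios factors, two-sided Wald test, Benjamini-Hochberg adjusted p under 0.05 over all genes), the tool and 5% rate of the study. EIR libraries entered as 1 group of 4, and the clone comparison had treatment as covariate. Intervals are 95% Wald intervals. Per-library log2 ratios used a pseudocount of 0.5. Symbols, GC content and lengths came from GENCODE 44 on GRCh37 (95.8% of identifiers matched). Alternatives were edgeR 4.0.16, TMM or total count scaling, GC correction (loess, span 0.5), a filter of 10 counts in 2 libraries, summed clones, fits by treatment or by clone, leaving out libraries, other lengths, and the clone number as replicate block. The clone number pairs treated and untreated libraries of the same clone per the labels, and the correlation of their deviations was 0.862. The scripts were tested on simulated data.

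The members and lists were chosen with earlier results of these data known. All 10 members are named. List genes are named if they passed, averaged at least 100 normalized counts and were among the 3 largest changes of their list. KDM1A, MEF2A, MEF2B, MEF2D, ATAT1, CTTN, HSP90AB1, SIRT1, SIRT4, SIRT6, SIRT7, MTA3, BRMS1 and KAT5 did not meet this. They were named after their values were seen, as was MEF2C, whose mean was lower. The lists were described by counts and medians. Marker genes were read in the 5 libraries as counts, and 6 of 7 line markers and 3 of 5 others were used here.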

Additional observations from a re-analysis of the deposited data

Results flagged for a closer look

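HDAC9 was set apart by 1 library among the 4 EIR libraries. The GSK126-treated clone 4 library had 324 normalized counts, against 237, 248 and 250 in the others, and its gap to the nearest library made up 0.851 of the range, above the 95% critical value of Dixon's test for 4 samples. For independent samples of 1 condition, chance alone exceeds this value in about 1 of 20 groups, and 10 genes were looked at. The 4 EIR libraries are not such samples, because they come from 2 clones, each untreated and GSK126-treated. The rate therefore does not apply to them, and the gap is given as a description of spread only. Whether clone or treatment set the treated clone 4 library apart was not tested. All 4 libraries lay below the 1671 of parental cells. Without this library HDAC9 still passed against parental cells. The library also had the smallest total count, 25479238, and its part in the HDAC9 value was not tested.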

How the results depend on the processing

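In EIR against parental cells 5 of 10 members were called. The number became 3 after GC correction, 3 with the libraries of each clone summed, 3 with untreated and 3 with GSK126-treated EIR libraries. It became 8 with the libraries of clone 3 as the group compared, and 5 to 6 when 1 EIR library was left out. All these calls were lower in EIR cells. HDAC1, HDAC5 and HDAC9 passed in all 14 alternatives. GC correction turned HDAC7 from -0.40 to 0.11. Total count scaling moved the median of all genes by 0.073 and GC correction by 0.092 on the log2 scale. Over all genes, 4157 calls became 1746 in edgeR (37.2% of them higher, against 48.4%), 1914 with clones summed, 1998 with untreated and 2017 with treated libraries. In CoREST, 4 calls became 1 in edgeR and after GC correction.

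Between treated and untreated EIR cells 0 members passed in every alternative. With the clone number as replicate block, which pairs libraries of the same clone, 0 of 10 passed and 4 genes of all genes passed, against 1 without it (7 with GC correction as well, 0 in edgeR without it and 1 to 25 with 1 library left out). The sign of small differences changed: with total count scaling HDAC2 was at 0.017, HDAC8 at 0.048, HDAC7 at 0.060 and HDAC6 at 0.051. With 1 library left out, values ran from -0.130 to 0.010 for HDAC2, -0.208 to 0.025 for HDAC3, -0.130 to 0.067 for HDAC8, -0.007 to 0.519 for HDAC4, -0.678 to 0.689 for HDAC5, -0.185 to 0.150 for HDAC7 and -0.081 to 0.263 for HDAC11. HDAC2, HDAC3, HDAC8 and HDAC7 turned above 0 without untreated clone 4, the last 3 also without treated clone 3, and HDAC4, HDAC5 and HDAC11 turned below 0 without treated clone 4.

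Between clones, leaving out 1 library (chosen after seeing the data, without the treatment covariate) gave 0 to 1 members called and 831 to 2800 genes, against 1738. HDAC2 ran from -0.005 (without untreated clone 4) to 0.131, HDAC9 from -0.080 (without treated clone 4) to 0.365 and HDAC6 from -0.004 (without treated clone 3) to 0.047. The rank of HDAC6 by level, 8 with the median transcript length, was 5 with the longest and 6 with the canonical transcript, the latter added after seeing the data. The cause of these changes was not tested. Counts were lowest for HDAC11, at 80 to 214, and for HDAC5 in EIR cells, at 57 to 139.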
